A study of Mus musculus with 2 samples.

Results

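NF-kB is a family of transcription factors that act as dimers, and the 10 genes described here are its 5 subunits and 5 genes that restrain or redirect those dimers. The subunits are *Nfkb1* (p105, the precursor of p50), *Nfkb2* (p100, the precursor of p52), *Rel* (c-Rel), *Rela* (p65) and *Relb*, and the inhibitors are *Nfkbia* (IκBα), *Nfkbie* (IκBε), *Nfkbiz* (IκBζ), *Bcl3* and *Tnfaip3* (A20). They were taken by gene symbol, whatever their level, from the 32285 genes counted by single-cell RNA-seq in 2 libraries of mouse gingiva taken from the palate. Each library pools cells of 4 female wild type C57Bl6/J mice, 8 to 12 weeks old. A ligand (3 µl at 1 µg/ml) lay on the palate under an oral appliance for 1 h, and the gingiva was taken on day 4. In the CpG ODN group the ligand was a synthetic oligonucleotide recognised by TLR9, and in the LPS group it was lipopolysaccharide of *P. gingivalis*, a TLR2/4 ligand by the labels. Between 2000 and 3000 cells of each mouse were combined, so there is 1 library per ligand, the spread between mice cannot be seen and no test between ligands was possible. Untreated gingiva was not analysed here.

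In resting cells IκB proteins hold NF-kB dimers in the cytoplasm. Toll-like receptors signal through the adaptor MyD88, IRAK kinases and the kinase TAK1 to IκB kinase, after which IκB is degraded and the dimers enter the nucleus and bind κB sites in DNA. *Nfkbia*, *Nfkbie* and *Tnfaip3* are classical targets of these dimers and close negative feedback loops, while IκBζ and Bcl-3 are nuclear IκB proteins that bind p50 or p52 dimers on DNA and can raise or lower selected targets.

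All 10 are protein-coding genes of GENCODE M21 on GRCm38. On the plus or minus strand, the subunits lie at *Nfkb1* chr3:135584655-135691547 (minus), *Nfkb2* chr19:46304320-46312385 (plus), *Rel* chr11:23736847-23770970 (minus), *Rela* chr19:5637483-5648130 (plus) and *Relb* chr7:19606217-19629438 (minus). The inhibitors lie at *Nfkbia* chr12:55489410-55492647 (minus), *Nfkbiz* chr16:55811375-55838899 (minus), *Nfkbie* chr17:45555703-45563169 (plus), *Tnfaip3* chr10:19000910-19015657 (minus) and *Bcl3* chr7:19808462-19822770 (minus).

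Because several of these genes are known targets of NF-kB, their promoters were searched for the kB consensus, a 10-base motif, on both strands and with overlapping matches counted. The promoters are those of RefSeq on GRCm38.p6, 250 bases before to 50 bases after each transcription start, where 7 of the 10 genes were matched by symbol and *Nfkb1*, *Nfkbiz* and *Relb* were not. A match lay in 6 of the 7, *Nfkbia*, *Nfkbie*, *Tnfaip3*, *Bcl3*, *Nfkb2* and *Rel*, against 4.51% of all 32851 promoters and 5.14% of 27025 genes. Those of the 130 bases upstream of 4 of them that lie outside every exon of GENCODE M21 are shown 5′ to 3′ on the strand of the gene, with matches in capitals. They were chosen because their matches lie in non-exonic sequence before the start, and *Rela*, the member without a match, is shown beside them. The bases of *Tnfaip3* lie within the gene's GENCODE span but in no exon.
Nfkbia, chr12:55492648-55492777, minus strand: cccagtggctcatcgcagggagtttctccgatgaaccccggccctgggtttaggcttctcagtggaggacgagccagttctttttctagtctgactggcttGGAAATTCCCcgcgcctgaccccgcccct
Tnfaip3, chr10:19015411-19015540, minus strand: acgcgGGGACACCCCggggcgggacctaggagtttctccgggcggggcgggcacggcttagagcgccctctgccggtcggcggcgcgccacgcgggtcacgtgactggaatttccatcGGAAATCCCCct
Nfkbie, chr17:45555570-45555699, plus strand: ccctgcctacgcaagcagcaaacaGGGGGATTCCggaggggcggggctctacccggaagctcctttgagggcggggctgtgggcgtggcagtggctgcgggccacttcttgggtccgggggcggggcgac
Rel, chr11:23770971-23771099, minus strand: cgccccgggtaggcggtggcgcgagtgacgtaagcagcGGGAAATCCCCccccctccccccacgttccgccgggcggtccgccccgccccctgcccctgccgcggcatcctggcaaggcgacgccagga
Rela, chr19:5637411-5637482, plus strand: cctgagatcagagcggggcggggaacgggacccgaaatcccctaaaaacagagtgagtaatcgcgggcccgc

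The match of *Nfkbia* began 29 bases before the start of transcription, and that of *Nfkbie* 106 bases before it. *Tnfaip3* had matches 125 and 12 bases before 1 of its starts and none at the other, and in *Rel* a pair of overlapping matches began 92 and 91 bases upstream. *Nfkb2* had 3 starts in the table, the first of them with the overlapping matches GGGAATTCCC and GGAATTCCCC 39 and 38 bases upstream and GGGGCTTTCC 11 bases upstream. The match of *Bcl3*, GGGAAGTCCC, began at base 3 after the start. A match describes the letters only, since no binding was measured.

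**Figure D1:**
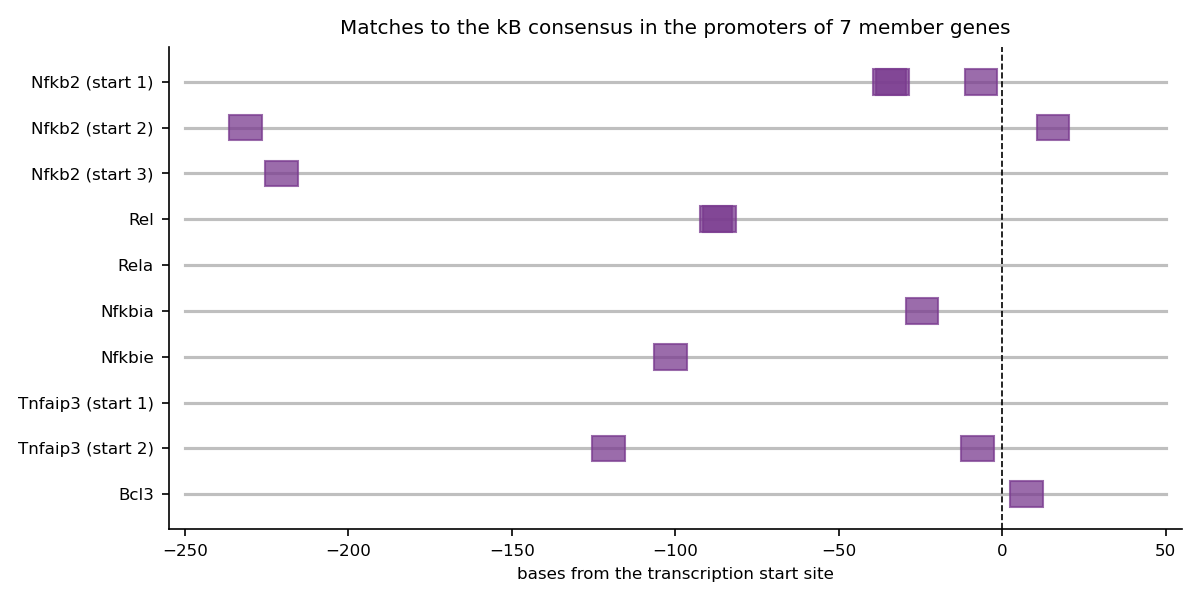
Positions of matches to the kB consensus in the promoters of the 7 member genes in the RefSeq table. Each grey line is 1 promoter, from 250 bases before to 50 bases after its start (x axis, bases from the start), and each box is a match of 10 bases. *Rela* and 1 start of *Tnfaip3* have none.

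A minimum of 800 detected genes left 4888 cells of the CpG ODN library (median 11077.5 UMIs, the unique molecular identifiers that mark captured RNA molecules) and 1277 of the LPS library (median 22680 UMIs). The members gave 43231 and 28789 UMIs in them. Clustering without the members and the pathway lists gave 27 clusters, 26 of them named from marker genes, and 11 classes had at least 10 cells in each library. They were basal (1702 cells after CpG ODN and 442 after LPS), suprabasal (1769 and 435) and cornifying keratinocyte-like (240 and 89), simple epithelial-like (117 and 87), fibroblast-like (239 and 54), endothelial-like (49 and 24), mural-like (76 and 22), glial-like (24 and 11), B-like (283 and 69), T-like (81 and 26) and myeloid-like cells (34 and 13). Doublets were kept, and 1 barcode of the kept cells occurred in both libraries. Levels are UMIs of a gene summed over a class per 1000000 UMIs of that class (CPM), with exact 95% Poisson intervals in parentheses that cover counting error only. As 1 UMI stands for 1 captured molecule whatever the transcript's length, CPM values of different genes are set side by side as captured molecules. Differences in capture between genes were not corrected.

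*Nfkb1* was highest in myeloid-like cells, at 258 CPM (196 to 334) after CpG ODN and 277 CPM (178 to 412) after LPS, in T-like cells 168 and 186 CPM and in B-like cells 163 and 152 CPM. These classes were the first 3 in order after CpG ODN, with overlapping intervals from each to the next, whereas after LPS fibroblast-like cells lay above the B-like cells, again with overlap. Fibroblast-like cells had 113 CPM (94.9 to 135) and 177 CPM (142 to 218). Basal keratinocyte-like cells had 46.5 and 56.9 CPM, suprabasal-like cells 41 and 45.3 CPM and cornifying-like cells 30.3 and 37.8 CPM, which were the 3 lowest levels after CpG ODN. Glial-like cells had 6 UMIs in the CpG ODN library and 0 in the LPS library, where 3 UMIs would have been 79 CPM.

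*Rel*, the c-Rel subunit known from lymphocytes, had B-like and myeloid-like cells far above the others. B-like cells had 526 CPM (473 to 584) after CpG ODN and 397 CPM (321 to 486) after LPS. Basal keratinocyte-like cells had 32 CPM (29.4 to 34.7) and 38.5 CPM (34.7 to 42.7), so the B-like level was 16.5-fold (14.4 to 18.8) and 10.3-fold (8.13 to 13) higher. With cells of at least 1200 detected genes the first of these folds was 4.0 (3.18 to 4.98). Myeloid-like cells had 356 CPM (283 to 444), below the B-like cells without overlap of the intervals, and after LPS 577 CPM (428 to 761), above them with overlap. T-like cells had 129 CPM (88.8 to 181) and 64.4 CPM (29.4 to 122), while the 3 keratinocyte layers lay between 24.3 and 38.5 CPM. A *Rel* UMI was found in 64% of B-like cells after CpG ODN. With each cell thinned to 1500 UMIs the shares were 50.3% after CpG ODN and 39.7% after LPS, against 4.6% and 5.19% of basal-like cells.

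*Rela*, which encodes the transactivating partner of p50 in the classical pathway, was spread more evenly. After CpG ODN it ran from 24.4 CPM (22.8 to 26) in suprabasal-like to 88.8 CPM (54.2 to 137) in endothelial-like cells, and after LPS from 28.1 CPM (24.1 to 32.5) in cornifying-like to 196 CPM (114 to 314) in myeloid-like cells. After LPS all 10 pairs of neighbours in the order of classes had overlapping intervals. Over 18 points, which are the 9 classes with at least 20 cells in each library taken once per library, the SD of *Rela* on the log2(CPM + 10) scale was 0.44, against 1.18 for *Rel*. Myeloid-like and glial-like cells, with 13 and 11 cells after LPS, are not among these points. B-like cells, with the most *Rel* after CpG ODN, had 43 and 33.8 CPM of *Rela*.

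*Nfkb2* and *Relb*, the subunits of the alternative pathway (p52 with RelB), were low in stratified epithelium. *Nfkb2* was 12.6 and 13.8 CPM in basal-like cells, and 5.65 CPM (4.18 to 7.47) and 7.77 CPM (5.75 to 10.3) in cornifying-like cells. It was 41.2 CPM (31.7 to 52.7) and 29.4 CPM (22.6 to 37.5) in simple epithelial-like cells, and highest in myeloid-like cells at 111 CPM (72.1 to 164) and 139 CPM (71.6 to 242). *Relb* was 8.84 and 10.5 CPM in basal-like, 4.15 and 6.66 CPM in cornifying-like and 43 and 46.5 CPM in B-like cells. Of all pairs of members, *Nfkb2* and *Relb* had the highest correlation over the 18 points (r = 0.84). The 9 points of a library share its preparation, so this is a description.

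*Nfkbia*, the inhibitor that NF-kB itself induces, had the highest CPM of the members in all 11 classes after LPS. After CpG ODN it had the highest CPM in 10 classes, and *Rel* was higher in B-like cells. Basal keratinocyte-like cells had 219 CPM (213 to 226) after CpG ODN and 288 CPM (277 to 299) after LPS, suprabasal-like cells 278 and 356 CPM, and cornifying-like cells 623 CPM (607 to 640.1) and 783 CPM (761 to 805). The level was thus higher in each further layer in both libraries, without overlap of the intervals. Simple epithelial-like cells had 618 and 518 CPM, fibroblast-like cells 712 and 816 CPM and mural-like cells 1016 and 963 CPM. Endothelial-like cells had 1181 and 1168 CPM, although 1 of the 24 cells after LPS held 49.3% of those UMIs. Among immune cells, B-like cells had 294 CPM (254 to 337) and 599.6 CPM (505 to 707), T-like cells 457 and 737 CPM, and myeloid-like cells 1448 CPM (1295 to 1614) and 2781 CPM (2441 to 3155), the highest in both libraries. Barcodes with under 800 genes and mostly hemoglobin UMIs give a background of free RNA, and a *Nfkbia* UMI was found in 0.633% of 474 such barcodes of the CpG ODN library (median 876 UMIs) and in 0.662% of 604 of the LPS library (median 2017 UMIs). Their UMIs other than hemoglobin summed to 71026 and 123539, of which *Nfkbia* was 42.2 and 32.4 CPM, on 3 and 4 UMIs. In the same barcodes *Rel*, *Nfkb1*, *Relb* and *Bcl3* had no UMI, where 3 barcodes would have been 0.633% and 0.497%. With so few UMIs, 0 says little about genes of low level.

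*Nfkbiz*, whose product IκBζ acts in the nucleus, was highest in myeloid-like cells (713 and 946 CPM), followed by the cells of vessel walls. Mural-like cells had 512 CPM (442 to 590) and 464 CPM (379 to 561), and endothelial-like cells 417 and 471 CPM. These were 7.82-fold and 4.54-fold the basal-like level in mural-like cells, and 6.37-fold and 4.61-fold in endothelial-like cells. Fibroblast-like cells had 232 and 227 CPM, basal-like cells 65.5 and 102 CPM, suprabasal-like cells 117 and 127 CPM and cornifying-like cells 169 and 193 CPM. B-like cells had 74.1 CPM (55 to 97.7) and 29.6 CPM (11.9 to 60.9). Of all pairs of members, *Rel* and *Nfkbiz* had the lowest correlation over the 18 points (r = -0.62). Myeloid-like cells, highest in *Nfkbiz* and high in *Rel* in both libraries, are not among these points.

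*Tnfaip3* encodes A20, a ubiquitin-editing enzyme that shuts down signalling above IκB kinase. It was highest in myeloid-like cells, at 374 CPM (299 to 463) after CpG ODN and 577 CPM (428 to 761) after LPS, but 1 of the 13 cells after LPS held 64% of the UMIs. T-like cells came next with 207 CPM (155 to 271) and 258 CPM (180.4 to 357). B-like cells had 28.2 CPM (17 to 44) and 8.45 CPM (1.02 to 30.5), below the T-like cells in both libraries without overlap of the intervals. In epithelium the level was 8.73 and 14 CPM in basal-like, 16.5 and 28.2 CPM in suprabasal-like, 23.2 and 64.4 CPM in cornifying-like and 71.9 and 51.8 CPM in simple epithelial-like cells.

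*Bcl3* and *Nfkbie* gave few UMIs. *Bcl3* was 3.29 and 4.54 CPM in basal-like and 11.9 and 12.5 CPM in cornifying-like cells. In simple epithelial-like cells it was 44.5 CPM (34.5 to 56.4) and 58.7 CPM (49 to 69.8), which was 13.5-fold (9.4 to 19.4) and 12.9-fold (9.1 to 18.7) the basal-like level. *Nfkbie* gave 28 UMIs in 3828 epithelial-like cells after CpG ODN and 35 in 1053 after LPS. In B-like cells it was 28.2 CPM (17 to 44) and 21.1 CPM (6.86 to 49.3), or 36.7-fold (17.4 to 79) and 33.4-fold (8.05 to 131) the basal-like level. At such counts classes could hardly be ordered, and for both genes all 10 pairs of neighbouring classes had overlapping intervals in both libraries.

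**Figure D2:**
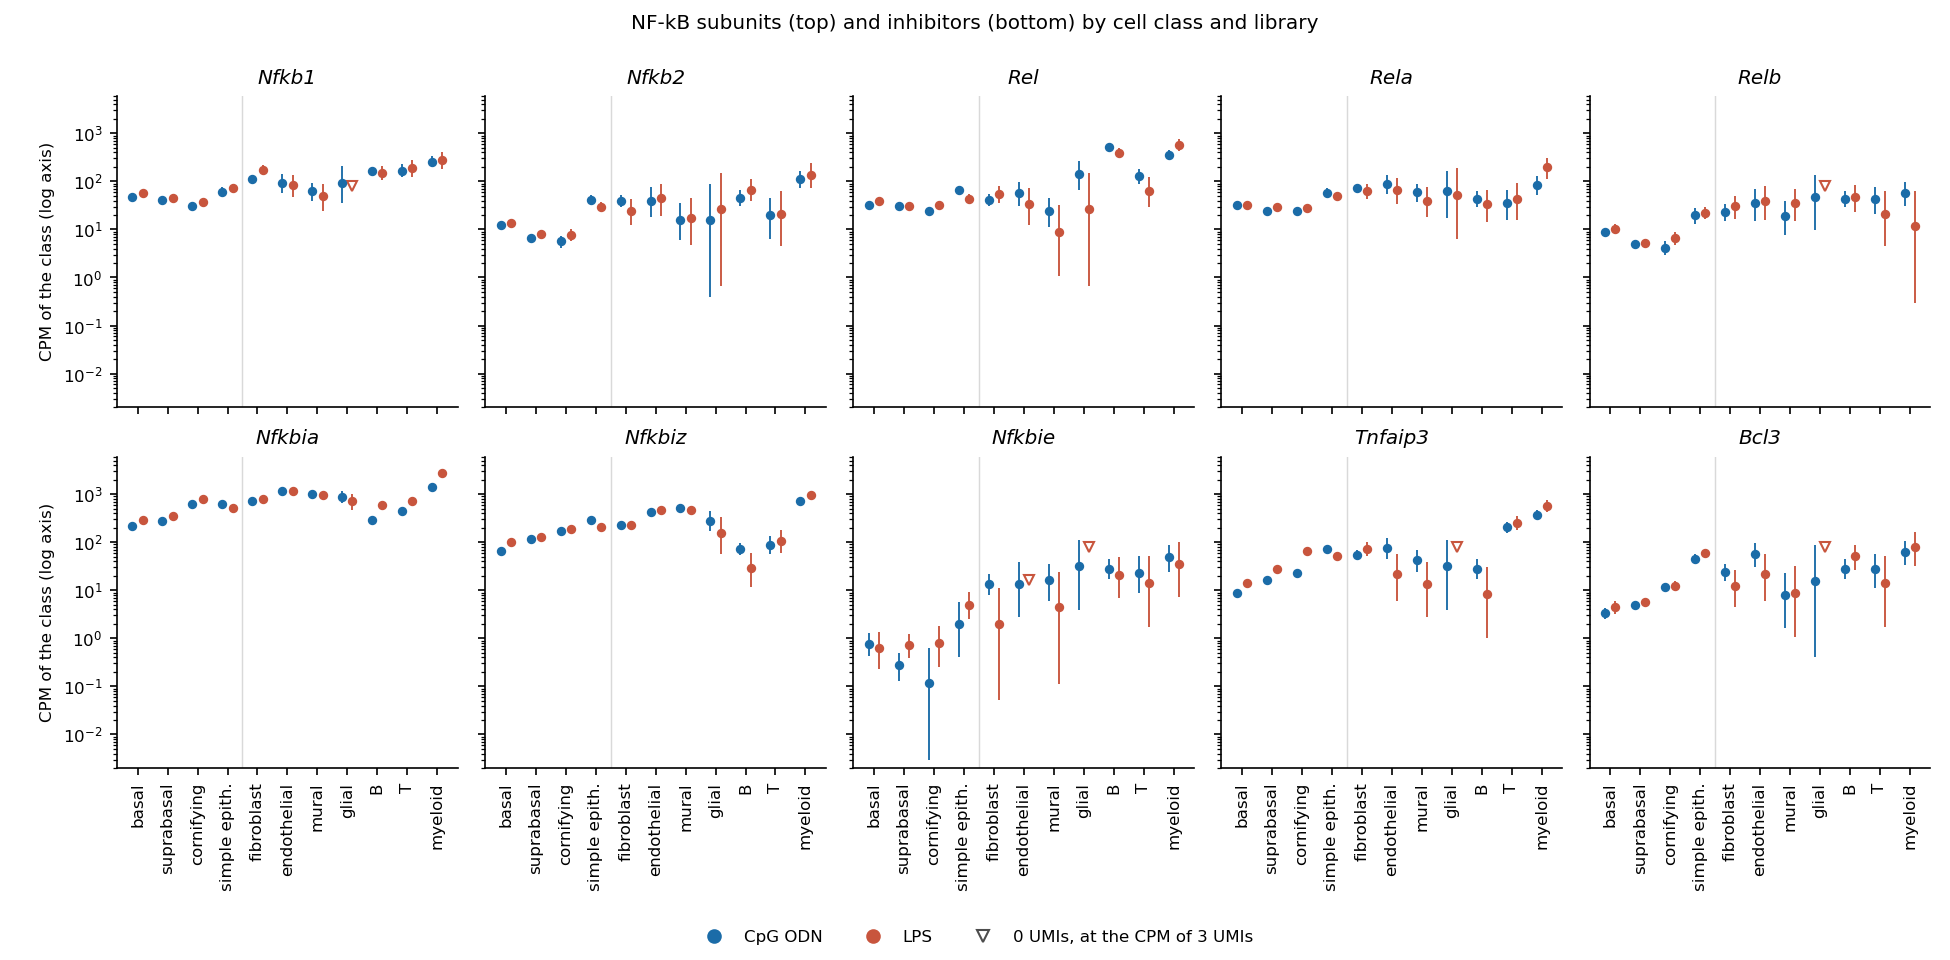
CPM of the 10 members (log axis) in 11 cell classes after CpG ODN (blue) and LPS (red), with 95% Poisson intervals for counting error. The grey line parts the epithelial classes from the others, and open triangles mark classes with 0 UMIs, drawn at the CPM of 3 UMIs. *Rel* stands out in B-like and myeloid-like cells, and *Nfkbie* is under 1 CPM in the 3 keratinocyte layers.

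Against basal keratinocyte-like cells, 9 of the 10 members were at least 1.5-fold higher in both libraries in myeloid-like cells, where 17% of all genes were, and 9 in fibroblast-like cells, where 27.6% were. The exception was *Relb* in myeloid-like and *Rel* in fibroblast-like cells. In T-like and simple epithelial-like cells 8 passed, against 16.2% and 19.6% of genes, in endothelial-like cells 7, against 23.9%, and in B-like cells 6, against 19%. Fewer passed in mural-like cells, 5 against 23% of genes, and in glial-like cells, 3 against 16.6%. *Nfkbia*, *Nfkbiz*, *Tnfaip3* and *Rela* were those that did not pass in B-like cells.

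To set inhibitors against subunits, the UMIs of the 5 inhibitors were divided by those of the 5 subunits in the same cells, a measure that does not depend on the scaling of a library. B-like cells after CpG ODN were the only ones of the 11 classes with fewer inhibitor than subunit UMIs, 305 against 554, a ratio of 0.551 (0.477 to 0.634). After LPS the counts were 168 and 165, a ratio of 1.02 (0.816 to 1.27). The value after CpG ODN depended on which cells were kept, and with at least 1200 detected genes it was 1.07 (0.874 to 1.3). Plasma or germinal centre B-like cells, outside the 11 classes with 239 and 4 cells, also had fewer inhibitor UMIs. After CpG ODN they had 598 against 706, a ratio of 0.847 (0.758 to 0.946).

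The others of the 11 classes had more inhibitor than subunit UMIs in both libraries. The ratio was 2.04 (1.6 to 2.61) after CpG ODN and 3.36 (2.41 to 4.76) after LPS in T-like cells, 3.05 (2.59 to 3.6) and 3.68 (2.96 to 4.62) in myeloid-like cells, and 3.58 (3.17 to 4.05) and 3.25 (2.74 to 3.88) in fibroblast-like cells. It reached 5.54 (4.29 to 7.23) and 6.33 (4.66 to 8.78) in endothelial-like and 8.88 (6.89 to 11.6) and 9.68 (6.79 to 14.2) in mural-like cells. A list of 17 genes known to be induced by tissue dissociation differed between classes too. It summed to 27285 and 23395 CPM in mural-like, 17908 and 14114 in endothelial-like and 19788 and 16035 in fibroblast-like cells. Myeloid-like cells had 20296 and 10248 CPM, T-like cells 3258 and 5186 and B-like cells 3647 and 5392. The part of these genes in the ratios was not tested. *Nfkbia* made up between 54.7% and 75.4% of the inhibitor UMIs of a class after CpG ODN and between 61.7% and 84.5% after LPS. Without it the ratio in basal-like cells fell below 1, to 0.596 and 0.796, while in cornifying-like cells it was still 2.29 and 2.39.

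**Figure D3:**
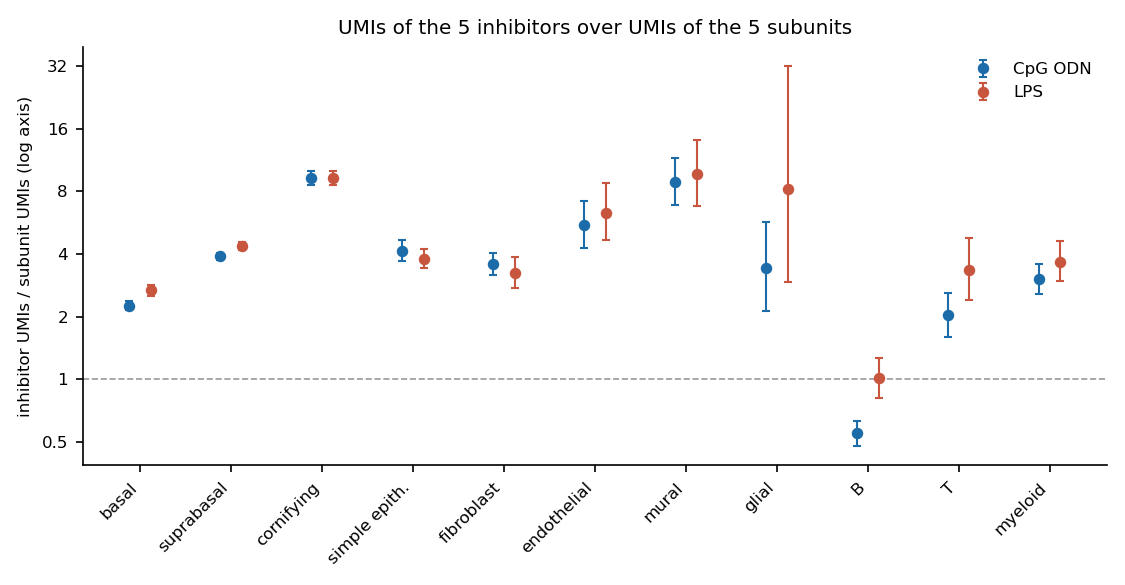
UMIs of the 5 inhibitors over UMIs of the 5 subunits (log axis) in 11 cell classes after CpG ODN (blue) and LPS (red), with exact binomial 95% intervals for counting error. The dashed line marks equal numbers. B-like cells lie under it after CpG ODN and close to it after LPS, and the ratio is higher in each further keratinocyte layer in both libraries.

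By class the ratio was ordered by layer in the stratified epithelium. After CpG ODN the ratio was 2.26 (2.16 to 2.38) in basal-like, 3.9 (3.77 to 4.04) in suprabasal-like and 9.3 (8.63 to 10.0) in cornifying-like cells, and after LPS 2.69 (2.53 to 2.86), 4.38 (4.18 to 4.6) and 9.3 (8.61 to 10.1). The intervals of the 3 layers did not overlap in either library. By cluster the basal-like and suprabasal-like layers were mixed. Cluster 2, a suprabasal-like one, had 2.78 (2.57 to 3.01) and 2.28 (2.0 to 2.6), and cluster 11, a basal-like one, 3.64 (3.09 to 4.29) and 4.44 (3.94 to 5.0). Both cornifying-like clusters, at 9.41 (8.63 to 10.3) and 7.73 (6.82 to 8.8) in cluster 10 and 9.0 (7.79 to 10.4) and 10.3 (9.32 to 11.4) in cluster 14, lay above all other keratinocyte-like clusters in both libraries. The cornifying-like value after LPS was 14.5 (12.7 to 16.7) when cells with at least 200 genes were kept. Of the 10 members, 4 were at least 1.5-fold higher in cornifying-like than in basal-like cells in both libraries, all of them inhibitors, and so were 13.5% of all genes. *Nfkbia* was 2.84-fold (2.73 to 2.96) and 2.72-fold (2.59 to 2.85) higher, and *Nfkbiz* 2.58-fold (2.38 to 2.78) and 1.89-fold (1.73 to 2.06). *Tnfaip3* was 2.66-fold (2.15 to 3.29) and 4.59-fold (3.76 to 5.62) higher, and *Bcl3* 3.61-fold (2.6 to 5.05) and 2.76-fold (1.88 to 4.1).

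*Nfkb1*, *Nfkb2* and *Relb* were at least 1.5-fold lower in cornifying-like cells in both libraries, but so were 54.5% of all genes. The median gene differed from its basal-like level by -0.84 on the log2 scale after CpG ODN and by -0.80 after LPS. Relative to that median *Nfkb1* was 1.17-fold and 1.15-fold higher, so its direction turned with the scaling, as did that of *Rel* (1.36-fold and 1.49-fold), of *Rela* (1.39-fold and 1.49-fold) and, after LPS, of *Relb* (1.11-fold). In suprabasal-like cells *Tnfaip3* alone was at least 1.5-fold higher than in basal-like cells in both libraries, against 8.16% of genes, and *Nfkb2* and *Relb* were lower, against 33.3%. The 4 inhibitors were higher in cornifying-like cells on either scale, *Nfkbia* by 5.09-fold and 4.72-fold relative to the median gene. The summed CPM of 17 immediate early and heat shock genes, a list of genes known to be induced by tissue dissociation, was also higher in the upper layers, at 5650 and 6801 in basal-like, 8171 and 8087 in suprabasal-like and 13197 and 11383 in cornifying-like cells. Their part in the pattern was not tested.

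In single cells the same order was seen. Thinned to 1500 UMIs, a *Nfkbia* UMI was expected in 24.4% of basal-like, 27.6% of suprabasal-like and 54% of cornifying-like cells after CpG ODN, and in 26.7%, 31.5% and 57.5% after LPS. The median cornifying-like cell had 5.8 *Nfkbia* UMIs per 10000 after CpG ODN and 6.85 after LPS, and the median basal-like cell 1.26 and 1.25. The upper quartile of the basal-like cells was 2.87 and 3.57, below the median of the cornifying-like cells. Among the 12 keratinocyte-like clusters *Nfkbia* ran from 129 to 625 CPM after CpG ODN and from 72.5 to 918 CPM after LPS. In both libraries cluster 8, a basal-like cluster, was lowest and cluster 14, a cornifying-like one, was highest. The clusters between them did not follow the layers throughout, since cluster 2 of the suprabasal-like layer, with 182 and 159 CPM, lay below the basal-like clusters 0, 3, 6 and 11 in both libraries.

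The ligands were then compared member by member in each class, by the CpG ODN/LPS ratio of CPM with its exact 95% interval. Of 110 combinations of member and class, 81 had at least 20 UMIs over both libraries. A difference was counted when the ratio was past 1.5-fold and its interval lay on 1 side of 1. By this rule 13 combinations were lower and 2 higher after CpG ODN, where 4.64% and 4% of all 69180 combinations of gene and class were. The inhibitors made up 9 of the 13 and both higher ones, in 41 combinations, and the subunits 4 of the 13, in 40. For 48 of the 81 the interval held 1. Without the cell with the most UMIs of the gene in each library, 7 were lower and 4 higher.

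**Figure D4:**
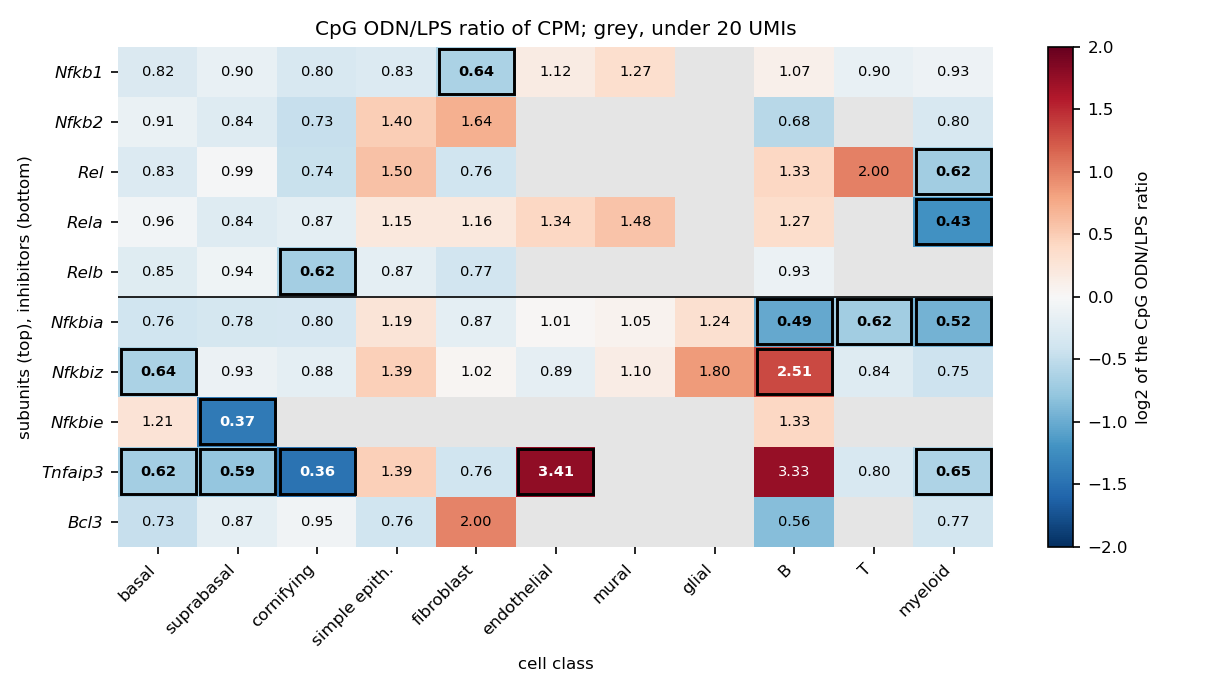
CpG ODN/LPS ratio of CPM for the 10 members in 11 cell classes, with colour on a log2 scale (blue, lower after CpG ODN). Boxed values in bold are past 1.5-fold with the counting interval on 1 side of 1, and grey fields have under 20 UMIs. *Tnfaip3* is lower after CpG ODN in all 3 keratinocyte layers and *Nfkbia* in the 3 immune classes.

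*Tnfaip3* passed in 5 classes, more than any other member, and was lower after CpG ODN in each keratinocyte layer. In basal-like cells it was 8.73 CPM (7.43 to 10.2) after CpG ODN and 14 CPM (11.8 to 16.6) after LPS, and the ratio was 0.622 (0.491 to 0.789). In suprabasal-like cells the ratio was 0.585 (0.519 to 0.661). In cornifying-like cells the levels were 23.2 CPM (20.1 to 26.6) and 64.4 CPM (58.3 to 71), and the ratio was 0.36 (0.303 to 0.428). In basal-like cells *Nfkbiz* also passed with 0.642 (0.589 to 0.699), so that 2 of 10 members were lower, against 3.06% of 12136 genes. By fold alone, without the interval, 5.18% of genes were lower and 3.32% higher. In suprabasal-like cells *Tnfaip3* and *Nfkbie* passed, the latter on 10 and 13 UMIs, against 2.65% of genes (4.43% lower and 3.49% higher by fold alone). In cornifying-like cells they were *Tnfaip3* and *Relb*, with 36 and 42 *Relb* UMIs, against 6.55% of genes (9.01% lower and 6.74% higher by fold alone). The *Relb* ratio was 0.624 (0.388 to 0.997), and its interval held 1 with cells of at least 200 genes, at 0.781 (0.37 to 1.65). The dissociation genes *Fos*, *Jun*, *Egr1* and *Atf3* had ratios of 0.89, 0.873, 0.899 and 0.751 in basal-like cells. In suprabasal-like cells the ratios were 1.02, 1.06, 1.08 and 1.12, and in cornifying-like cells 1.18, 1.22, 1.16 and 1.4. Their part in the *Tnfaip3* differences was not tested.

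The libraries fill the clusters of a class differently. After CpG ODN 172 of the 240 cornifying-like cells were in cluster 10, and after LPS 46 of 89 were in cluster 14. *Tnfaip3* was lower after CpG ODN within both, with 19 and 46.7 CPM in cluster 10 (ratio 0.407, 0.313 to 0.53) and 34.4 and 76.2 CPM in cluster 14 (ratio 0.451, 0.348 to 0.579). Of the 11 keratinocyte-like clusters with at least 20 *Tnfaip3* UMIs it was lower in 9, with the interval below 1 in 6 and above 1 in 0. The basal-like and suprabasal-like differences were smaller within clusters, and no longer past 1.5-fold. In suprabasal-like cells the geometric mean of the ratios within clusters was 0.719, and cluster 2 lay on the other side of 1 (1.24, 0.828 to 1.89). In basal-like cells *Tnfaip3* was lower in clusters 0 (0.736, 0.481 to 1.14), 6 (0.739, 0.437 to 1.27) and 11 (0.719, 0.441 to 1.15) and higher in cluster 3 (1.26, 0.59 to 2.91), each with 1 inside the interval. The geometric mean of the ratios within all 5 basal-like clusters, cluster 8 with 7 and 1 UMIs included, was 0.984. *Nfkbia* had no single direction. Its ratio was 0.762 in basal-like, 0.781 in suprabasal-like and 0.796 in cornifying-like cells, but by cluster it ran from 0.681 in cluster 14 to 1.78 in cluster 8, with the interval below 1 in 7 of 12 clusters and above 1 in 4. *Nfkbiz* ran from 0.574 in cluster 17 to 1.49 in cluster 2. Its geometric mean within the basal-like clusters was 0.806, short of 1.5-fold, with 1 inside the interval in clusters 0, 3 and 8.

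**Figure D5:**
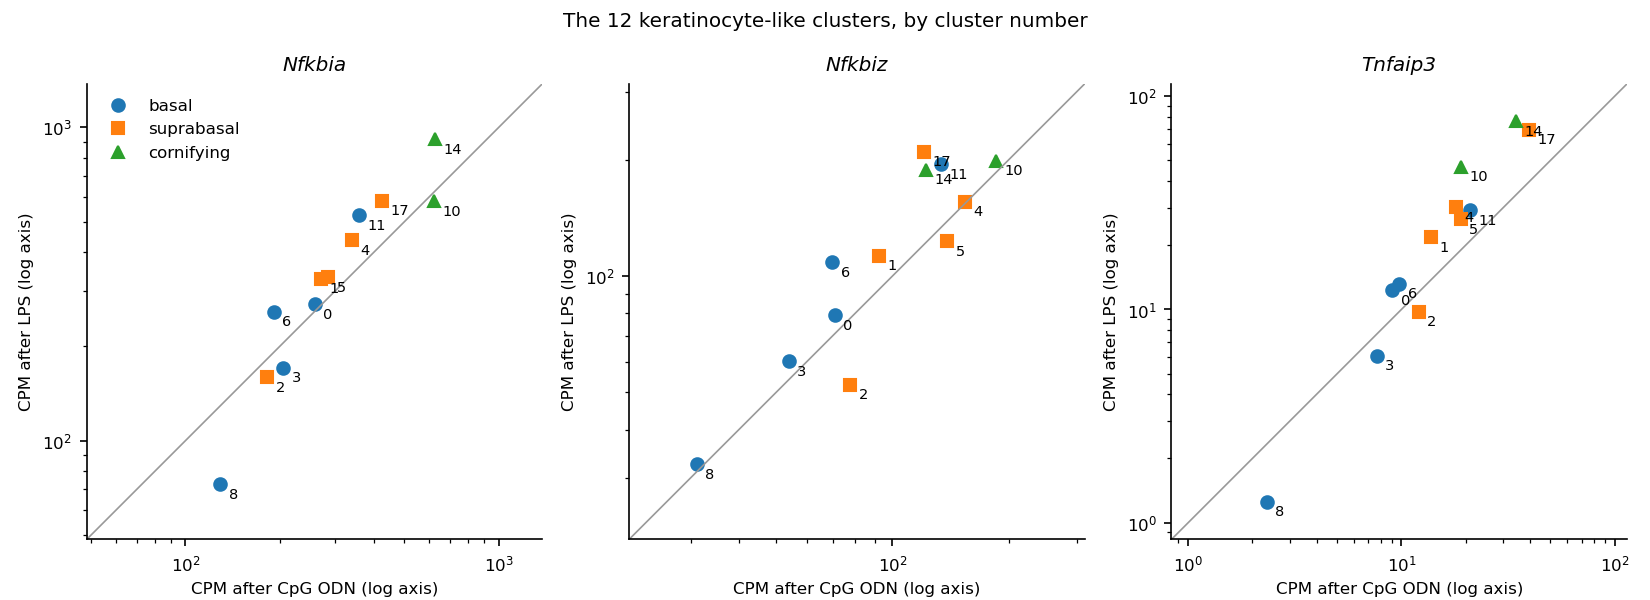
CPM of *Nfkbia*, *Nfkbiz* and *Tnfaip3* after CpG ODN (x) and after LPS (y), both on log axes, in the 12 keratinocyte-like clusters, marked by layer and cluster number. The grey line marks equal levels. *Tnfaip3* lies above it in 9 of the 11 clusters with at least 20 UMIs, and *Nfkbia* lies on both sides.

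In simple epithelial-like cells none of 9 members passed in either direction, against 8.21% of genes higher and 6.21% lower. Several values lay on the other side of 1 from those of keratinocytes, with *Tnfaip3* at 1.39 (1.06 to 1.82), *Nfkbiz* at 1.39 (1.22 to 1.59), *Nfkbia* at 1.19 (1.09 to 1.3) and *Rel*, just under the fold, at 1.5 (1.12 to 2.0). The difference between these classes was not tested. Over 11 alternative ways of processing *Tnfaip3* ran from 0.772 to 1.45, on both sides of 1. The direction of *Nfkbia* and *Nfkbiz* turned within clusters. Their geometric means were 0.692 and 0.881, and the clusters were filled differently by the libraries. *Nfkbia* was at 1.27 (1.14 to 1.4) in cluster 12, with 88 and 55 cells. It was at 0.356 (0.222 to 0.548) in cluster 24, with 17 and 18 cells, and at 0.735 (0.576 to 0.934) in cluster 25, with 12 and 14. The 14 myeloid markers summed to 895 CPM after CpG ODN, with 7 of them at 0, and 7593 CPM after LPS, with 6 at 0. *S100a8* (94.1 and 3563 CPM) and *Lyz2* (2.62 and 845 CPM) were among them, while *Tyrobp*, *Fcer1g* and *Csf1r* were at 0 in both libraries. Their part in these values was not tested.

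In fibroblast-like cells *Nfkb1* was lower after CpG ODN, on 132 and 88 UMIs, with a ratio of 0.642 (0.486 to 0.85), and was the only one of 9 members to pass, against 4.44% of genes. At resolution 2.0 it was 0.724 (0.536 to 0.981), short of the fold. Within the class it was 0.671 (0.503 to 0.898) in cluster 9, while cluster 19 had 18 and 2 UMIs. The myeloid markers summed to 15.5 CPM after CpG ODN, with 9 of 14 at 0, and 627 CPM after LPS, with 5 at 0, and *S100a8* was 4.3 and 313 CPM. Their part in the difference was not tested. *Nfkbia* (0.873, 0.775 to 0.986), *Nfkbiz* (1.02, 0.818 to 1.28) and *Rela* (1.16, 0.759 to 1.81) lay nearer to 1, while *Nfkb2* (1.64, 0.855 to 3.4) and *Bcl3* (2.0, 0.811 to 5.9) were past the fold with 1 inside the interval. Of the genes that carry the signal from the receptor, *Myd88* was 49 and 26.1 CPM (ratio 1.88, 1.01 to 3.73), *Irak1*, a kinase recruited by MyD88, 51.6 and 70.3 CPM (0.733, 0.475 to 1.15) and *Map3k7*, which encodes TAK1, 25.8 and 22.1 CPM (1.17, 0.568 to 2.58).

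In endothelial-like cells *Tnfaip3* was higher after CpG ODN, at 75.5 CPM (44 to 121) and 22.1 CPM (6.03 to 56.7), and the ratio was 3.41 (1.11 to 13.9), the only one of 5 members to pass, against 5.34% of genes (4.16% were lower). This rests on 17 and 4 UMIs, of which single cells held 35.3% and 75%. Without those cells under 20 UMIs remained and no ratio was taken, and without cells of over 20% mitochondrial UMIs it was 3.06 (0.997 to 12.5). The dissociation genes *Fos* (1.53, 1.38 to 1.71), *Jun* (1.69, 1.43 to 1.99) and *Atf3* (1.92, 1.48 to 2.51) were higher after CpG ODN too, with 4 of 15 of their list past 1.5-fold higher and 1 lower, and *Egr1* was near 1 (1.06, 0.916 to 1.22). The list summed to 17908 and 14114 CPM. The basal keratinocyte markers summed to 1558 CPM, with 1 of 10 at 0, and 803 CPM, with 3 at 0. Their part in the difference was not tested. *Nfkbia* (1.01, 0.841 to 1.22) and *Nfkbiz* (0.887, 0.654 to 1.2) were near 1. In mural-like cells none of 4 members passed, against 3.66% of genes higher and 4.38% lower, with *Nfkbia* at 1.06 (0.891 to 1.25) and *Nfkbiz* at 1.1 (0.866 to 1.42). Neither of the 2 members tested in glial-like cells passed, against 15.5% higher and 9.68% lower.

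B-like cells had opposite differences in a pair of inhibitors. *Nfkbia* was 294 CPM (254 to 337) after CpG ODN and 599.6 CPM (505 to 707) after LPS, and the ratio was 0.49 (0.393 to 0.612), where 2.86% of 4608 genes were lower. *Nfkbiz* was 74.1 CPM (55 to 97.7) and 29.6 CPM (11.9 to 60.9), and the ratio was 2.51 (1.13 to 6.56) on 50 and 7 UMIs, where 3.75% were higher. Thinned to 1500 UMIs, a *Nfkbia* UMI was expected in 28% and 43.2% of B-like cells, and a *Nfkbiz* UMI in 9.82% and 4.82%. *Rel* (1.33, 1.05 to 1.68) and *Nfkb1* (1.07, 0.73 to 1.61) did not reach the fold, and *Tnfaip3* (3.34, 0.805 to 29.5, on 19 and 2 UMIs) had 1 inside its interval. Over 11 alternative ways of processing *Rel* ran from 0.369 to 1.37 and *Nfkb1* from 0.484 to 1.27, so neither kept its direction. The interval of *Nfkbiz* held 1 with cells of at least 200 genes, at 2.14 (0.994 to 5.48), and of at least 1200, at 2.21 (0.807 to 8.45). The ratio of inhibitor to subunit UMIs after CpG ODN over that after LPS was 0.541 (0.415 to 0.705) in the B-like class. As given above, the value after CpG ODN depended on the cells kept and was above 1 with at least 1200 detected genes. Plasma or germinal centre B-like cells form a class of their own, of 239 cells in the CpG ODN library and 4 in the LPS library, and had 211 CPM of *Nfkbia* and 188 CPM of *Rel* after CpG ODN. The dissociation genes summed to 3647 CPM after CpG ODN and 5392 CPM after LPS in B-like cells, and their part in the *Nfkbia* difference was not tested.

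In T-like cells *Nfkbia* was 457 CPM (378 to 548) and 737 CPM (601 to 894), and the ratio was 0.621 (0.472 to 0.817), and it alone of 5 members passed, against 4.08% of genes. *Tnfaip3* (0.804, 0.517 to 1.26) and *Nfkb1* (0.903, 0.543 to 1.53) did not, and *Rel* had a ratio of 2.0 (0.938 to 4.76) on 33 and 9 UMIs. The same cells differed in *Fos* (109 and 665 CPM) and *Jun* (121 and 486 CPM), both lower after CpG ODN. The 10 basal keratinocyte markers summed to 1957 CPM after CpG ODN, with none at 0, and to 215 CPM after LPS, with 4 at 0. Their part in the result was not tested.

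Myeloid-like cells had 4 of 8 members lower after CpG ODN, but 13.3% of genes were lower and 11.4% higher by the same rule. *Nfkbia* had a ratio of 0.521 (0.439 to 0.618), *Rel* 0.618 (0.428 to 0.898), *Tnfaip3* 0.649 (0.452 to 0.94) and *Rela* 0.431 (0.212 to 0.884). *Nfkb1* (0.933, 0.571 to 1.57) and *Nfkbiz* (0.753, 0.574 to 0.995) did not reach the fold. These values rest on 34 and 13 cells. Without the cell with the most *Tnfaip3* UMIs in each library its ratio turned to 1.43 (0.843 to 2.54). With cells taken by a UMI of *Lyz2* and none of a signature gene of another class, 33 and 21 cells, all 4 ratios lay above 1, *Nfkbia* at 1.31 (1.11 to 1.53), *Rel* at 1.82 (1.22 to 2.73), *Tnfaip3* at 1.35 (0.948 to 1.93) and *Rela* at 1.08 (0.582 to 1.99). The class also differed in make-up. The neutrophil genes *S100a8* (1599 and 10779 CPM) and *Csf3r* (8.91 and 358 CPM) were higher after LPS. The keratinocyte markers summed to 3435 CPM after CpG ODN and 173 CPM after LPS, where 7 of the 10 were at 0. *Fos* (3101 and 369 CPM) and *Egr1* (1675 and 404 CPM) were higher after CpG ODN. Make-up and ligand cannot be told apart in these cells.

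Other genes of the pathway were taken from lists. Of 25 receptors, adaptors and kinases upstream of NF-kB, 23 had at least 20 UMIs in the pooled epithelial-like cells and none differed by 1.5-fold, with a median log2 CpG ODN/LPS ratio of -0.06 beside -0.04 for all 14105 genes. By fold alone 10.6% of genes were lower and 2.6% higher in these cells. *Myd88* was 20.2 and 25.7 CPM (ratio 0.787, 0.723 to 0.858), *Irak1* 37.7 and 37.8 CPM (0.998, 0.934 to 1.07) and *Map3k7* 18.4 and 19.6 CPM (0.942, 0.857 to 1.04). Of 16 other regulators 2 were lower after CpG ODN past 1.5-fold. They were *Tnip3*, which encodes a partner of A20, at 0.863 and 3.0 CPM (0.288, 0.204 to 0.401), and *Nfkbid*, which encodes another nuclear IκB protein, at 1.79 and 4.29 CPM (0.417, 0.325 to 0.534). By class, some genes of the upstream list were past 1.5-fold. *Tlr2* and *Tlr4* were higher after CpG ODN among 23 in basal-like cells, against 3.32% of genes. Among 20 in cornifying-like cells *Ikbke* was higher and *Tlr4*, *Irak3* and *Traf6* lower, against 6.74% and 9.01%. Among 21 in simple epithelial-like cells *Irak4* was higher and *Ikbkg* lower, against 13.7% and 11%. None of 23 differed in suprabasal-like cells.

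Of 20 target genes of NF-kB, 17 were tested in the epithelial-like cells. After CpG ODN 7 were lower past 1.5-fold (*Icam1*, *Birc3*, *Ccl20*, *Cxcl1*, *Tnf*, *Il6* and *Plaur*) and 2 higher (*Vcam1* and *Cd83*). Of all genes 10.6% were lower and 2.6% higher by fold alone. The median log2 ratio of the targets was -0.40, beside -0.04 for all genes. *Plaur*, the urokinase receptor, was 2.11 and 6.67 CPM (0.316, 0.255 to 0.392), and *Tnf* 1.7 and 4.01 CPM (0.423, 0.327 to 0.546). *Vcam1* and *Cd83* had 23 and 22 UMIs after CpG ODN and 5 each after LPS. By class 3 of 14 targets were lower in basal-like and 4 of 13 in suprabasal-like cells, against 5.18% and 4.43% of genes. In cornifying-like cells 5 of 12 were lower, against 9.01%, and none was higher in these 3 layers. In simple epithelial-like cells 5 of 14 were lower and 2 higher, against 11% and 13.7%. *Il6* was among the lower ones in no class and *Birc3* in suprabasal-like cells only. Among the members *Tnfaip3* (0.512, 0.471 to 0.557), *Nfkbie* (0.44, 0.258 to 0.744) and *Bcl3* (0.645, 0.558 to 0.746) passed in the same pooled cells, where 8.32% of genes were lower by fold and interval. The libraries fill the epithelial clusters unequally. The geometric means of the ratios within clusters were 0.812 for *Tnfaip3*, 0.837 for *Bcl3* and 0.524 for *Nfkbie*. The *Nfkbie* mean rests on few UMIs, since 0 of the 12 keratinocyte-like clusters had at least 20. Clusters with 0 UMIs in a library were left out of it. *Bcl3* passed in none of the 4 epithelial classes, where its ratios were 0.726 (basal), 0.874 (suprabasal), 0.949 (cornifying) and 0.757 (simple epithelial). None of the 17 dissociation genes was past 1.5-fold, with a median of -0.08 and *Fos*, *Jun*, *Egr1* and *Atf3* between 0.987 and 1.02.

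Outside the epithelium fewer list genes could be counted. In fibroblast-like cells 14 targets were tested, 1 higher and 2 lower past 1.5-fold, against 13.8% and 11.6% of genes. *Cxcl2*, a neutrophil-attracting chemokine, was 42.1 and 185 CPM (0.228, 0.158 to 0.326) and *Vcam1*, an adhesion molecule for leukocytes, 61 and 18.1 CPM (3.37, 1.68 to 7.68). In endothelial-like cells 13 were tested, 4 higher and 3 lower, against 16.7% and 11.7% of genes. *Il6* had 29 and 2 UMIs there (ratio 11.6, 2.94 to 101), and *Ptgs2*, which encodes COX-2, 0 and 34.

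In immune cells between 7 and 15 targets were tested. Of 9 targets tested in B-like cells 1 was higher and 1 lower, against 16.1% and 11.7% of genes, and of the regulators *Otulin*, which encodes a deubiquitinase of the pathway, was 175 and 101 CPM (1.73, 1.11 to 2.8) and *Nfkbib*, which encodes IκBβ, 25.2 and 59.1 CPM (0.426, 0.198 to 0.934). Of 7 targets in T-like cells 1 was higher and 2 lower, against 14.9% and 13.2%, with *Icam1* at 39.1 and 165 CPM (0.238, 0.101 to 0.519). Of 15 in myeloid-like cells 3 were higher and 5 lower, against 24.7% and 23.5%. There *Il1b*, an inflammatory cytokine, was 526 and 3243 CPM (0.162, 0.13 to 0.202) and *Tlr2* 227 and 508 CPM (0.447, 0.293 to 0.686). *Zc3h12a*, which encodes an RNase that degrades cytokine transcripts, was 125 and 346 CPM (0.36, 0.207 to 0.624). These values rest on 34 and 13 cells that differ in make-up, with *S100a8* at 1599 and 10779 CPM. Make-up and ligand cannot be told apart in them.

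The genes whose log2(CPM + 10) over the 18 points was most like that of *Nfkbia*, among 12580 genes with at least 100 UMIs, were *Tpcn1* (0.912), *Lrrc8a* (0.884), *Gabarapl2* (0.871), *Junb* (0.859) and *Tm2d1* (0.841), with Pearson's r in parentheses. Those most like *Nfkb1* were *Tmsb10* (0.936), *Chd1* (0.935), *Shisa5* (0.932), *Man2b1* (0.932) and *Birc3* (0.928), the last being a target of NF-kB that encodes an inhibitor of apoptosis. Among the members *Nfkbia* was nearest to *Nfkbiz* (r = 0.73), and its correlation with *Nfkb1* was 0.16. Myeloid-like cells, highest in both *Nfkbia* and *Nfkb1*, are not among the 18 points.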

How the data were processed

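Per the file headers the authors deposited gene by barcode matrices of UMI counts from Cell Ranger 4.0.0, filtered for cells and not normalized, and the submitters' processing notes also name Seurat. The genome build is not given in the sources used here. Of 32285 gene identifiers 32158 were found in GENCODE M21.

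The libraries held 6219 barcodes with 72173148 UMIs (CpG ODN) and 2016 with 38656738 (LPS), and 5 barcodes occurred in both. Barcodes under 800 detected genes were left out, and doublets were kept. Both libraries were clustered together (2000 variable genes, 30 principal components, 15 neighbours, Leiden resolution 1.0), with 88 list genes held out. Clusters were named from at least 3 markers, and a cluster took the later name of its lineage, cornifying or plasma cell, when that list reached 50% of the best score, a rule set after seeing the data. The named genes are the 10 members, the 5 genes most like *Nfkbia* and *Nfkb1*, of each list and main class up to 2 with the highest and 2 with the lowest ratio past 1.5-fold, and fixed upstream and dissociation genes, of which the text gives a part. Members and lists were chosen with earlier results of these data known. CPM have exact Poisson intervals, ratios exact conditional binomial intervals and shares exact Clopper-Pearson intervals, all at 95%, and PCR and sampling of mice are not covered. In counts simulated as Poisson, which the intervals assume, 95.4% of 14105 intervals (epithelial-like) and 96.3% of 7973 (fibroblast-like) held the true ratio. UMIs concentrated in single cells were not simulated, so coverage in the real counts was not tested. The alternatives were other gene minimums and resolutions, clustering with the lists, cells by signature genes (not reported here for B cells), doublets or cells over 20% mitochondrial UMIs left out, means over cells, scaling to the median gene, other sums of inhibitors and subunits, leaving out the cell with the most UMIs and ratios within clusters. Protein sequences were not used here. Python 3.11.15, numpy 2.4.6, scipy 1.17.1, pandas 2.3.3, scikit-learn 1.9.0, igraph 0.11.9 and leidenalg 0.10.2 were used.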

Additional observations from a re-analysis of the deposited data

Results flagged for a closer look

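For 2 members the CpG ODN/LPS ratio passed 1.5-fold in opposite directions in different classes. *Nfkbiz* was higher after CpG ODN in B-like cells (2.51) and lower in basal keratinocyte-like cells (0.642). *Tnfaip3* was higher after CpG ODN in endothelial-like cells (3.41) and lower in basal (0.622), suprabasal (0.585) and cornifying keratinocyte-like (0.36) and in myeloid-like cells (0.649). The endothelial-like value rests on 17 and 4 UMIs, and its interval held 1 without cells of over 20% mitochondrial UMIs, at 3.06 (0.997 to 12.5). The myeloid-like value turned to 1.43 without the cell with the most UMIs and to 1.35 with cells by signature genes. Within clusters the basal-like values were 0.984 for *Tnfaip3* and 0.806 for *Nfkbiz*. The *Tnfaip3* value is an unweighted geometric mean that includes cluster 8, with 7 and 1 UMIs. The interval of *Nfkbiz* in B-like cells held 1 with at least 200 detected genes, at 2.14 (0.994 to 5.48). The difference between classes was not tested, since each ligand has 1 library.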

How the results depend on the processing

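No paired analysis was possible because there is only 1 library for each ligand. The ratios within clusters and the inhibitor to subunit ratio without the cell with the most member UMIs were added after seeing the data. Depth limits *Nfkbie*, *Bcl3* and *Relb* most, and the glial-like, endothelial-like and myeloid-like classes.

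The inhibitor to subunit UMI ratio in basal keratinocyte-like cells after CpG ODN was 2.4 and 2.43 with at least 200 and 1200 detected genes and 2.55 and 2.42 at resolution 0.5 and 2.0, and after LPS 3.36 at resolution 0.5. In cornifying-like cells it was 10.2 and 10.2 (200 and 1200 genes) and 10.1 (lists not held out) after CpG ODN, and after LPS 14.5, 14.5 and 14.1 under the same settings and 10.3 and 12 at resolution 0.5 and 2.0. Without *Nfkbia* it was 0.596 and 0.796 in basal-like, 2.29 and 2.39 in cornifying-like and 0.193 and 0.158 in B-like cells after CpG ODN and LPS, 0.902 in fibroblast-like cells after LPS and 0.881 in T-like cells after CpG ODN. Without *Nfkbiz* it was 1.77 and 2.02 in basal-like and 7.4 and 7.6 in cornifying-like cells, and 0.46 in B-like cells after CpG ODN. With *Rela* as the only subunit it was 9.43 and 12.5, 33.8 and 37.5, and 10.5 and 21 in these classes. In B-like cells after CpG ODN it was 1.07 with at least 1200 genes.

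The *Nfkbia* fold of cornifying-like over basal-like cells was 2.97, 2.71 and 2.51 after CpG ODN and 3.44, 3.24 and 2.47 after LPS with at least 200 genes, 1200 genes and resolution 0.5, and after LPS 2.92 at resolution 2.0 and 3.18 with lists not held out. The *Rel* fold of B-like over basal-like cells after CpG ODN was 4.0 with at least 1200 genes. The *Nfkbia* CpG ODN/LPS ratio in B-like cells was 0.387 with at least 1200 genes. Cells taken by a UMI of 1 signature gene and of no other gave 1.82 for *Rel*, 1.08 for *Rela*, 1.31 for *Nfkbia* and 1.35 for *Tnfaip3* in myeloid-like cells. Without the top cell the last was 1.43. Within clusters the *Tnfaip3* ratio was 0.429 in cornifying-like and 0.812 in all epithelial-like cells, and in the separate keratinocyte classes it stayed below 1 under all 11 alternatives, between 0.321 and 0.984. The number of combinations lower after CpG ODN was 2 with signature genes and 7 without the top cell, and the number higher was 1 with at least 200 genes, 1 with at least 1200 genes and 4 without the top cell. The cause of these changes was not tested. Of the remaining values under alternatives, 104 of the main results and 1442 of single members differed from the reported value by less than counting error, or for counts by less than 1.5 times, and 208 of single members differed by more, with no ratio turning that was past 1.5-fold with its interval on 1 side of 1.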
